A study of Mus musculus with 4 samples.

Results

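The subunits of ionotropic neurotransmitter receptors were followed over 4 arrays, 1 for each of bexarotene-treated embryoid bodies (EBs), RA-treated EBs, untreated EBs and undifferentiated ES cells. A probe set was taken as a member where its only annotated symbol was that of a subunit of an AMPA, NMDA, kainate or delta glutamate receptor, a GABA-A receptor, a glycine receptor, a nicotinic acetylcholine receptor, a 5-HT3 serotonin receptor or a P2X receptor for ATP. By this rule 65 of 35556 probe sets were members, standing for 62 of the 19938 genes with a probe set of 1 symbol.

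EBs are aggregates in which ES cells leave pluripotency and start to form derivatives of the germ layers. Mouse ES cells, of the D3 line according to the article, spent 2 days in hanging drops and 5 further days in suspension, and RNA was taken at day 7. Bexarotene, a synthetic agonist of the retinoid X receptor (RXR), was added at 50 nM. The labels give 5 µM for RA, which binds the retinoic acid receptor, whereas the article gives a lower, nanomolar dose, so the ligands were not at matched doses by either account. Untreated EBs and ES cells received neither ligand. All cells came from 1 line, each condition has 1 array, and a whole EB mixes many cell types, so that more cells of a type and more RNA per cell cannot be told apart.

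Values are log2 signal as the authors normalized it, and a difference is that between 2 arrays on this scale. A gene is called higher or lower here where it was past 1.5-fold, 0.585 on the log2 scale, which is the threshold of the article. No array has a replicate, which leaves the spread between cultures unknown and allows no p-value. Across all 19938 genes the robust SD of the difference was 0.167 for bexarotene-treated against untreated EBs, 0.172 for RA-treated against untreated EBs, 0.115 for bexarotene-treated against RA-treated EBs and 0.317 for untreated EBs against ES cells. Markers followed the labels, since 7 of 8 genes of pluripotent cells were lower in untreated EBs relative to ES cells and 6 of 9 genes of extraembryonic and visceral endoderm were higher.

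Ionotropic receptors are ion channels that open when a transmitter binds. GABA-A, glycine, nicotinic and 5-HT3 receptors are rings of subunits with a shared fold, glutamate receptors are built from another kind of subunit, and P2X receptors from a further one. Glutamate, acetylcholine, serotonin and ATP receptors pass cations and mostly excite the cell, while GABA-A and glycine receptors pass chloride. Which subunit genes a cell transcribes sets which receptor it can assemble, and in the nervous system many of them change with the maturation and the position of the neuron. Muscle fibres use a nicotinic receptor of their own.

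With bexarotene, 4 of the 62 subunits were past 1.5-fold higher and 4 lower than in untreated EBs, 6.45% in each direction, where 1.48% of all genes were higher and 2.15% lower. With RA, 8 were higher (12.9%) and 2 lower (3.23%), where 2.07% and 2.22% of all genes were. The glycine receptor subunit Glra1 and the nicotinic subunits Chrna3, Chrna5 and Chrna4 were higher with each ligand, and the GABA-A subunit Gabra3 and the AMPA subunit Gria3 were lower with each. Both comparisons use the same untreated array, so their calls are not independent of each other. The members had a median difference of 0.09 with bexarotene and 0.09 with RA, against -0.008 and 0 for all genes, so most of the family stood close to the untreated EBs. Of the 62 genes, 40 were past 1.5-fold in none of the 4 comparisons made.

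**Figure D1:**
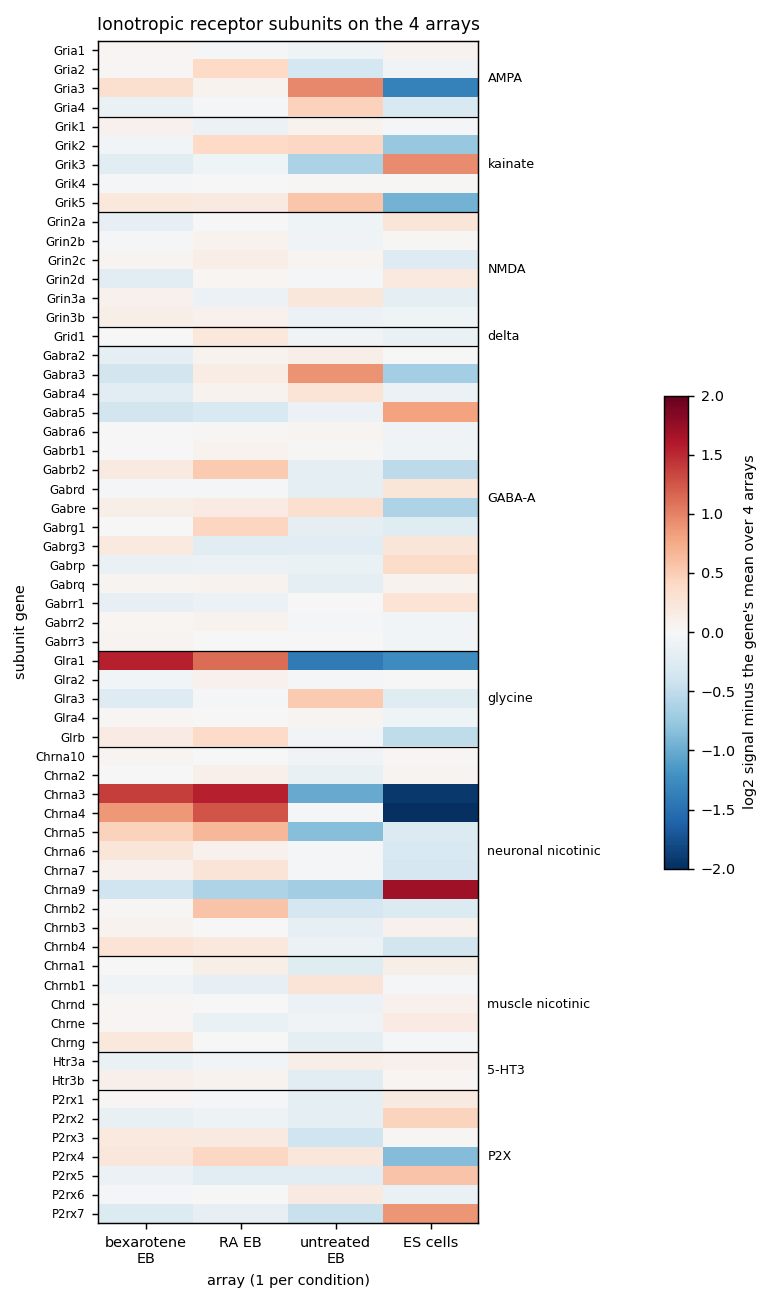
Log2 signal of all 62 subunit genes on the 4 arrays, each as the difference from the gene's own mean over the arrays, with genes ordered by receptor family. Glra1, Chrna3 and Chrna4 are high in bexarotene-treated and RA-treated EBs, Chrna9 and Grik3 are high in ES cells, and most rows are pale.

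Glra1 had the largest difference of any subunit. It encodes an alpha subunit of the glycine receptor, the form known from adult spinal cord and brainstem, and mutations in it cause startle disease. Its log2 signal was 8.03 with bexarotene and 7.60 with RA, against 5.06 in untreated EBs and 5.22 in ES cells. Both ligand-treated arrays thus stood far above the other 2, which lay near the lower quartile of their arrays (5.19 in each). Relative to untreated EBs, Glra1 was 7.84-fold higher with bexarotene and 5.81-fold higher with RA. The untreated value was below the lower quartile, where a signal may be background, so the size of these folds is uncertain, and with values below that quartile raised to it the log2 difference was 2.84 with bexarotene and 2.41 with RA, against 2.97 and 2.54 as deposited. Among the 19938 genes it had the rank 4 from the top in the bexarotene comparison and the rank 12 in the RA comparison.

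The other glycine receptor genes did not share this pattern. Glra2, the alpha subunit known from the fetal nervous system, stayed between 3.50 and 3.64 on all 4 arrays, below the lower quartile. Glrb, the beta subunit that binds the scaffold protein gephyrin, had a log2 signal of 7.12 with bexarotene and 7.34 with RA, against 6.90 in untreated EBs and 6.45 in ES cells, and was past the threshold in none of the comparisons. Glra3 was 1.71-fold lower with bexarotene, at 3.29 against 4.06 in untreated EBs, but all 4 of its values were below the lower quartile. Glra4 stayed between 4.75 and 4.88.

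Neuronal nicotinic subunits had the most calls by number with each ligand, though not by share, since the AMPA family had 2 of 4 genes called with each. The 11 neuronal nicotinic genes gave 3 calls with bexarotene and 4 with RA, each of them higher. Of all genes, 1.48% and 2.07% were higher. All 11 differences were above 0 in each comparison, as were 9562 (bexarotene) and 9937 (RA) of the 19938 genes. The smallest were 0.11 with bexarotene (Chrna7) and 0.06 with RA (Chrna10), below the robust SDs of 0.167 and 0.172. The family's median difference was 0.30 with bexarotene and 0.28 with RA. The 2 comparisons share the untreated array, so a low value there raises both.

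Chrna3 encodes the main alpha subunit of the nicotinic receptor of autonomic ganglia. Its log2 signal was 9.40 with bexarotene and 9.57 with RA, against 7.02 in untreated EBs and 6.08 in ES cells. It was 5.22-fold higher with bexarotene and 5.87-fold higher with RA than in untreated EBs, with the ranks 9 and 11 among all genes. Untreated EBs were themselves 1.91-fold above ES cells.

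Chrna5, an accessory subunit that joins receptors containing Chrna3 or Chrna4, had a log2 signal of 6.81 with bexarotene and 7.01 with RA, against 5.50 in untreated EBs and 6.08 in ES cells. The ligand-treated EBs were above both other arrays, by 2.47-fold (bexarotene) and 2.85-fold (RA) over untreated EBs. Untreated EBs had the lowest of the 4 values, at a difference of -0.58 from ES cells, just inside the threshold. Chrnb4, the beta subunit that pairs with Chrna3 in ganglia, differed less, with 8.19 under bexarotene and 8.13 under RA, against 7.80 in untreated EBs and 7.55 in ES cells.

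Chrna3, Chrna5 and Chrnb4 are neighbours on chromosome 9, and Chrna5 and Chrna3 lie on opposite strands with overlapping ends in RefSeq. Which part of these genes the probes cover is not given in the sources used here. The 250 bases before each annotated start, of which Chrna5 has 2, are shown because the genes stand side by side and 2 of them were higher together. The sequences are from RefSeq on GRCm38.p6, 5′ to 3′ along the gene, with the hexamer AGGTCA, the core of sites bound by RXR and its partners, in capitals on either strand.
Chrna5, chr9:54980630-54980879, plus strand: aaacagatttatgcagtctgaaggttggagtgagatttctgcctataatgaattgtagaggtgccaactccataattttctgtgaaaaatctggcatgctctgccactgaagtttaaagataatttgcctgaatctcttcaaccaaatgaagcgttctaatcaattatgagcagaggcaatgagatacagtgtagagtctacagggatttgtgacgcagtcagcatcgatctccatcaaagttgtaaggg
Chrna5, chr9:54981238-54981487, plus strand: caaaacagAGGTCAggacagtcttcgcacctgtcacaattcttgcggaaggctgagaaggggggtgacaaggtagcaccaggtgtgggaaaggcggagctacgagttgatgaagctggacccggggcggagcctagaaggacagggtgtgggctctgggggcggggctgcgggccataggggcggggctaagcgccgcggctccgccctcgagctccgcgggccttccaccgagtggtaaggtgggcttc
Chrna3, chr9:55026563-55026812, minus strand: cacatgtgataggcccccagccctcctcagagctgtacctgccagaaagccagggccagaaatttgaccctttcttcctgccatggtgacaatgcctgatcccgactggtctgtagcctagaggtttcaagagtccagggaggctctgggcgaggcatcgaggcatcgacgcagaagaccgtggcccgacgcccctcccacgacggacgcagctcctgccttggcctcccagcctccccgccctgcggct
Chrnb4, chr9:55048545-55048794, minus strand: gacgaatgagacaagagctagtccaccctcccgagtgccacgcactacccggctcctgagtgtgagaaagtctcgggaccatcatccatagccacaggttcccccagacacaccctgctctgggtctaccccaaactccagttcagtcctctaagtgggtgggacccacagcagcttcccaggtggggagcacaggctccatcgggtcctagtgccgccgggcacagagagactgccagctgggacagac
The hexamer occurs once before the second Chrna5 start, and not before the first or in the windows of Chrna3 and Chrnb4. The windows had a G and C content of 40%, 65.2%, 63.2% and 61.2% in the order shown.

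Chrna4 and Chrnb2 form the main nicotinic receptor of the brain. The alpha subunit Chrna4 was at 10.03 with bexarotene and 10.42 with RA, against 9.15 in untreated EBs and 7.05 in ES cells. Its values thus stood in the order ES cells, untreated EBs, bexarotene, RA. It was 1.85-fold higher with bexarotene and 2.42-fold higher with RA than in untreated EBs, and untreated EBs were 4.28-fold above ES cells. Chrnb2 was at 7.59 with bexarotene and 8.14 with RA, against 7.23 in untreated EBs and 7.29 in ES cells, and was past the threshold with RA (1.88-fold) and not with bexarotene (a difference of 0.36). The windows before these genes are shown for comparison with the chromosome 9 genes, and the hexamer stands once in that of Chrnb2, on the reverse strand.
Chrna4, chr2:181039178-181039427, minus strand: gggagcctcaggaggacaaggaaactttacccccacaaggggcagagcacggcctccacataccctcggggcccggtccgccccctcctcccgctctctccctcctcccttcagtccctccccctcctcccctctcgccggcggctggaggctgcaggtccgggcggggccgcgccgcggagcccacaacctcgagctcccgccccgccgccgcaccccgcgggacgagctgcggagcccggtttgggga
Chrnb2, chr3:89764633-89764882, minus strand: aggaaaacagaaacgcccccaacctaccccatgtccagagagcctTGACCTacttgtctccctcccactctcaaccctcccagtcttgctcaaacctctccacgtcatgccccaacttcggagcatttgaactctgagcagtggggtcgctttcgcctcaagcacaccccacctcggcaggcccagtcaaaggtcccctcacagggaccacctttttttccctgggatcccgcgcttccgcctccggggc
Chrna4 had the higher G and C content of this pair, 74.4%.

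Promoter windows of 300 bases, 250 before and 50 after the start, were at hand for 45 of the 62 members (51 windows), Glra1 not among them. AGGTCA or its complement TGACCT was in 6 of the 51 member windows (11.8%) and in 5340 of 32851 windows of all genes (16.3%). Of the 10 windows of members higher with at least 1 ligand, it was in 2 (20%), those of Chrna5 and Chrnb2, too few to set against either share. Sites of RXR dimers pair the hexamer with a direct repeat of itself, and AGGTCA followed by another AGGTCA after 5, 2 or 1 bases (either strand, each form also holding the single hexamer) was in 0 member windows and in 3, 3 and 13 windows of all genes. TTCAGCACC, a part of the site of the neuronal repressor REST, was in 0 member windows and in 0.371% of all windows. The repeats and TTCAGCACC are so rare over all windows that 0 is the likely count for any set of 51. Their absence therefore tells nothing about the members. All these counts describe exact letters in short windows and do not speak to sites elsewhere.

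The remaining neuronal nicotinic genes were within the threshold with each ligand. Chrna7, which forms receptors by itself, was at 8.29 with bexarotene and 8.47 with RA, against 8.18 in untreated EBs and 7.87 in ES cells. Chrna6, Chrna10 and Chrnb3 had signals between 4.94 and 5.58 on every array, and Chrna2 differed from untreated EBs by 0.13 with bexarotene and 0.25 with RA. Chrna9, known from cochlear hair cells, was the subunit with the largest difference between untreated EBs and ES cells in the lower direction. It was at 6.32 with bexarotene, 6.11 with RA and 6.02 in untreated EBs, against 8.42 in ES cells, so that all 3 EB arrays were low and ES cells alone were high. The difference of untreated EBs from ES cells was -2.40, or 5.27-fold. Chrna10, its usual partner, was flat, between 5.42 and 5.55.

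Muscle nicotinic subunits differed little on these arrays. Of the 5 genes Chrna1, Chrnb1, Chrnd, Chrng (the fetal form) and Chrne (the adult form), none was past 1.5-fold in any of the 4 comparisons. With bexarotene the differences ran from -0.31 (Chrnb1) to 0.40 (Chrng), and with RA from -0.42 (Chrnb1) to 0.37 (Chrna1). Chrng was at 6.71 with bexarotene and 6.51 with RA, against 6.31 in untreated EBs and 6.46 in ES cells. Of 10 genes of skeletal muscle, among them Myog and Myod1, none was past the threshold with either ligand. Rapsn and Musk, which gather these receptors at the nerve-muscle synapse, had differences of 0.18 and -0.19 with bexarotene.

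**Figure D2:**
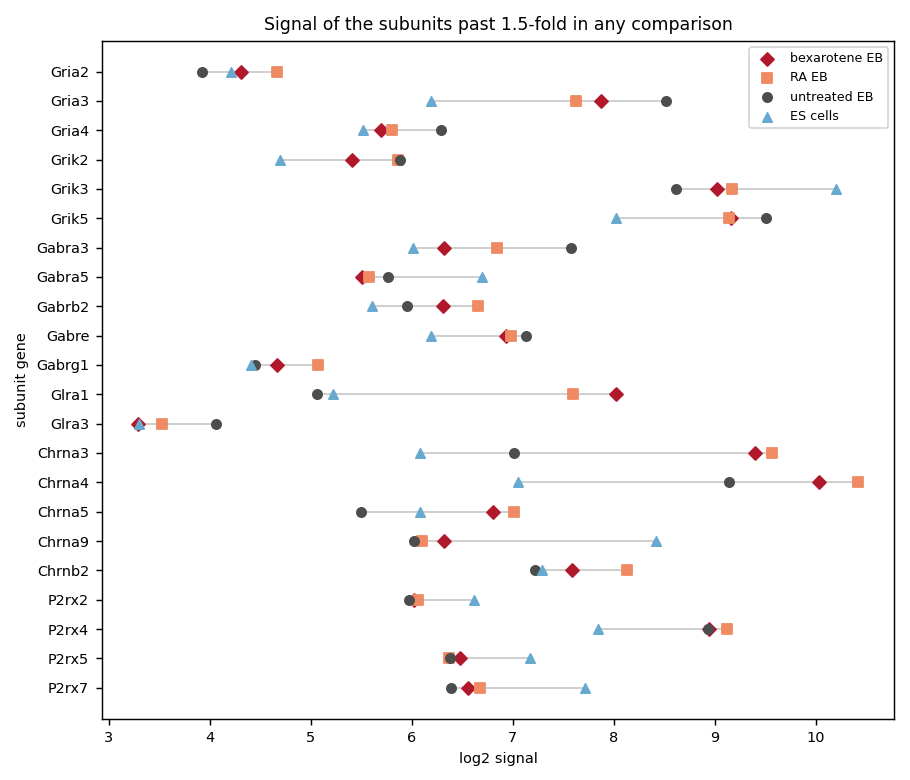
Log2 signal (x axis) of the 22 subunit genes past 1.5-fold in at least 1 of the 4 comparisons, with 1 point per array and a grey line over the range. Glra1 and Chrna3 have their ligand-treated points far right of the others, Gria3 and Gabra3 have untreated EBs on the right, and Chrna9, Grik3 and P2rx7 have ES cells on the right.

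Among glutamate receptors, the AMPA subunits, which carry most fast excitation, went in different directions. Gria3 was at 7.88 with bexarotene and 7.63 with RA, against 8.51 in untreated EBs and 6.20 in ES cells. All EB arrays were above ES cells, by 4.99-fold for untreated EBs, and the ligand-treated arrays were below the untreated one, 1.56-fold with bexarotene and 1.85-fold with RA. Gria4, too, was highest in untreated EBs and lowest in ES cells, at 5.69 with bexarotene and 5.81 with RA, against 6.29 in untreated EBs and 5.52 in ES cells. It was 1.51-fold lower with bexarotene, just past the threshold, and within it with RA (-0.48). Gria2, the subunit that limits calcium entry, was 1.68-fold higher with RA, at 4.67 against 3.93 in untreated EBs, with 4.31 under bexarotene and 4.21 in ES cells. All 4 of its values were below the lower quartile of their arrays. Gria1 stayed between 5.11 and 5.28.

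Of the 5 kainate receptor genes, none was past the threshold with bexarotene or RA. Untreated EBs had 2 higher and 1 lower than ES cells, where 11.0% and 8.52% of all genes were. With 5 genes these counts do not set the family apart. Grik5, a subunit that works only with a partner, was at 9.17 with bexarotene and 9.15 with RA, against 9.51 in untreated EBs and 8.02 in ES cells, and untreated EBs were 2.81-fold above ES cells. Grik2, a subunit it can pair with, was at 5.41 with bexarotene and 5.86 with RA, against 5.88 in untreated EBs and 4.70 in ES cells (2.27-fold between the last pair). The ES cell value was below the lower quartile, and with such values raised to the quartile the log2 difference of untreated EBs from ES cells was 0.69, against 1.18 as deposited. Grik3 went the other way, with 9.02 under bexarotene and 9.17 under RA, against 8.62 in untreated EBs and 10.20 in ES cells, a difference of -1.59 between the last pair. Grik1 and Grik4 were within the threshold throughout.

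The 6 measured NMDA subunits, Grin2a, Grin2b, Grin2c, Grin2d, Grin3a and Grin3b, gave no call in any comparison. NMDA receptors need glutamate and a coagonist and take part in synaptic plasticity. The differences of these genes ran from -0.17 to 0.23 with bexarotene, from -0.35 to 0.19 with RA and from -0.33 to 0.42 between untreated EBs and ES cells. The delta subunit Grid1, which acts at synapses with cerebellins, was between 6.78 and 7.11 on the 4 arrays.

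GABA-A receptors had 16 measured subunits. With bexarotene 1 was lower (6.25%) and none higher, where 2.15% and 1.48% of all genes were. With RA 1 was lower (6.25%) and 2 higher (12.5%), where 2.22% and 2.07% of all genes were. These counts are too small to set the family apart. Gabra3, an alpha subunit known from embryonic brain, was at 6.32 with bexarotene and 6.84 with RA, against 7.58 in untreated EBs and 6.01 in ES cells. Untreated EBs were the highest array, 2.97-fold above ES cells, and the ligand-treated EBs lay between. Against untreated EBs the difference was -1.26 with bexarotene (2.39-fold lower) and -0.74 with RA (1.67-fold lower). The first was the largest of any subunit in the lower direction, with the rank 92 from the bottom among all genes.

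Gabrb2, a beta subunit that helps to form the GABA site, has 3 probe sets, and these differed from untreated EBs by 0.71, 0.91 and 0.59 with RA. With bexarotene the same probe sets had differences of 0.36, 0.52 and 0.62. The last was past 1.5-fold, but the first stands for the gene, so Gabrb2 was not called with bexarotene. The probe set that stands for the gene has the highest mean. It was at 6.31 with bexarotene and 6.66 with RA, against 5.95 in untreated EBs and 5.61 in ES cells. The other probe sets of Gabrb2 were below the lower quartile on every array, where a signal may be background. Gabrg1, a gamma subunit, was 1.55-fold higher with RA, at 5.07 against 4.45 in untreated EBs, below the lower quartile on every array. Gabra5, an alpha subunit of hippocampus, was at 5.51 with bexarotene, 5.57 with RA and 5.76 in untreated EBs, against 6.69 in ES cells, which left untreated EBs 1.91-fold lower. Gabre was at 6.93 with bexarotene, 6.98 with RA and 7.13 in untreated EBs, against 6.20 in ES cells. The 3 rho subunits of the retina, Gabrr1, Gabrr2 and Gabrr3, and the epithelial subunit Gabrp had differences between -0.17 and 0.11 with the ligands.

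**Figure D3:**
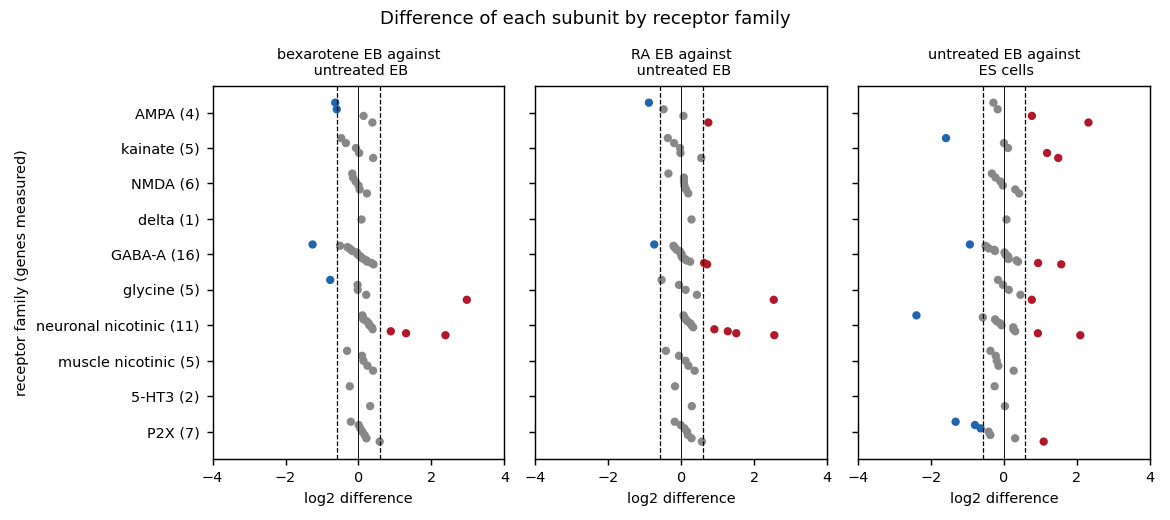
Log2 difference of each subunit gene (points) by receptor family for bexarotene-treated against untreated EBs, RA-treated against untreated EBs and untreated EBs against ES cells. Dashed lines mark 1.5-fold, red points are higher and blue points lower than that, and the ligand panels have their points farthest right in the glycine and neuronal nicotinic families while the P2X points lie mostly left of 0 in untreated EBs against ES cells.

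P2X receptors, opened by ATP, were not past the threshold with either ligand for any of 7 genes. P2rx3, a subunit of sensory neurons, came closest, with a difference of 0.58 with bexarotene and 0.57 with RA. Its log2 signal was 6.58 with bexarotene and 6.57 with RA, against 6.42 in ES cells, and untreated EBs were the lowest of the 4 arrays. A second probe set of this gene differed by 0.03 and 0.08 only. Between untreated EBs and ES cells, 1 P2X gene was higher (14.3%) and 3 lower (42.9%), where 11.0% and 8.52% of all genes were. The family median was -0.42, against -0.04 for all genes. With 7 genes the counts are too small to set the family apart. P2rx4, a widely expressed subunit, was at 8.94 with bexarotene, 9.12 with RA and 8.94 in untreated EBs, against 7.84 in ES cells. Its chromosomal neighbour P2rx7, known from macrophages, was at 6.56 with bexarotene, 6.68 with RA and 6.39 in untreated EBs, against 7.72 in ES cells. Untreated EBs were thus 2.13-fold higher than ES cells for P2rx4 and 2.50-fold lower for P2rx7. P2rx5 and P2rx2, too, were lower in untreated EBs, by 1.73-fold and 1.56-fold. The serotonin subunits Htr3a and Htr3b were within the threshold in every comparison, with signals from 5.51 to 5.91.

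Over all families, untreated EBs had 10 subunits higher (16.1%) and 6 lower (9.68%) than ES cells, where 11.0% and 8.52% of all genes were. These shares were near those of all genes. The 10 were Gria3, Chrna4, Gabra3, Grik5, Grik2, P2rx4, Gabre, Chrna3, Gria4 and Glra3 in order of size, and the 6 were Chrna9, Grik3, P2rx7, Gabra5, P2rx5 and P2rx2.

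Between the ligands, 0 of the 62 subunits were past 1.5-fold in either direction, where 0.196% of all genes were higher with bexarotene and 0.296% lower. The difference nearest to the threshold was that of Chrnb2, -0.55 for bexarotene-treated against RA-treated EBs, followed by Gabra3 (-0.52) and Grik2 (-0.45). Glra1 had the largest difference in the other direction, 0.43. The ligands were at different doses, so these values do not compare them at equal exposure.

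In the RefSeq gene order 24 of the 62 members fall into 11 groups of family genes in which each is at most 5 genes from the next. The Chrna5, Chrna3 and Chrnb4 group was the only group with 2 measured members past 1.5-fold in the same direction with bexarotene, and likewise with RA. On chromosome 5, Gabrg1, Gabra2, Gabra4 and Gabrb1 had differences of 0.22, -0.30, -0.51 and -0.03 with bexarotene. Gabrb2 on chromosome 11 was 1.64-fold higher with RA while its neighbour Gabra6 had a difference of -0.03. Gria2 and Glrb, next to each other on chromosome 3, had differences of 0.74 and 0.43 with RA, and 0.38 and 0.21 with bexarotene. On the X chromosome Gabre and Gabra3 were the group with 2 members higher in untreated EBs than in ES cells, and with bexarotene they differed by -0.20 and -1.26.

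**Figure D4:**
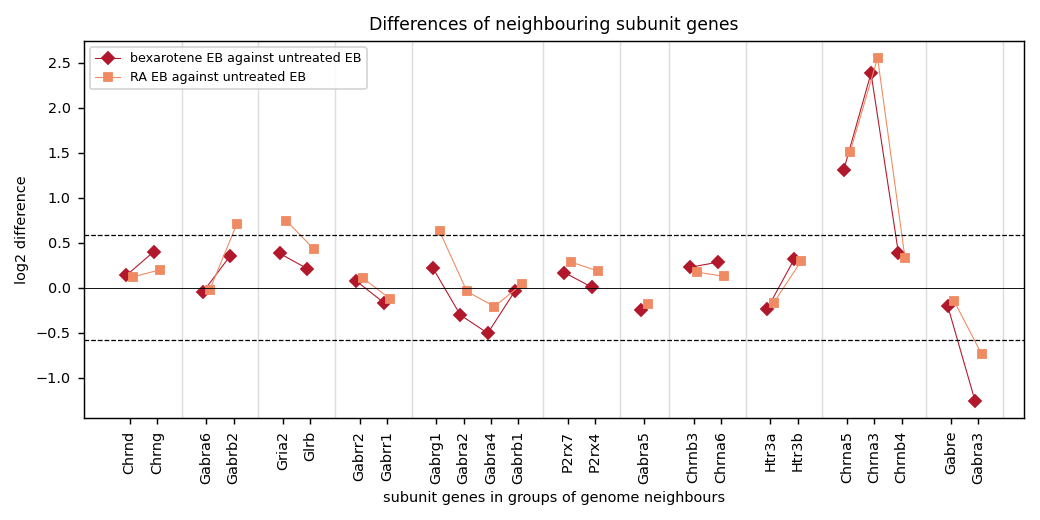
Log2 difference from untreated EBs with bexarotene (diamonds) and RA (squares) for 24 subunit genes in groups of genome neighbours, with lines joining the genes of a group in their order and dashed lines at 1.5-fold. Chrna5 and Chrna3 stand above the upper line with both ligands, Chrnb4 stays below it, and Gabra3 lies below the lower line.

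Genes that partner the receptors were mostly within the threshold. Of 34 measured auxiliary subunits, scaffolds and synaptic organizers, 1 was higher (2.94%) and 2 lower (5.88%) with each ligand. Of all genes, 1.48% were higher and 2.15% lower with bexarotene, and 2.07% and 2.22% with RA. The counts are too small to set this list apart. Cacng4, an auxiliary subunit of AMPA receptors, was at 8.58 with bexarotene and 8.90 with RA, against 7.83 in untreated EBs and 7.34 in ES cells. Cbln1, which bridges delta receptors and neurexins, was at 6.81 with bexarotene and 7.29 with RA, against 8.44 in untreated EBs and 6.03 in ES cells. Nlgn3, a neuroligin, was at 6.96 with bexarotene and 7.27 with RA, against 8.06 in untreated EBs and 7.52 in ES cells. Gephyrin (Gphn), the anchor of glycine and GABA-A receptors, differed by 0.07 and -0.03.

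Of 19 measured genes that make, load or clear these transmitters, 2 were higher (10.5%) and 1 lower (5.26%) with bexarotene. With RA, 6 were higher (31.6%) and 1 lower (5.26%). Of all genes, 1.48% were higher and 2.15% lower with bexarotene, and 2.07% and 2.22% with RA. Slc18a3, the vesicular transporter of acetylcholine, was at 7.52 with bexarotene and 7.59 with RA, against 6.62 in untreated EBs and 7.32 in ES cells. Chat, the enzyme that makes acetylcholine, differed by 0.15 and 0.04 only. Slc17a6, a vesicular glutamate transporter, was at 5.66 with bexarotene and 5.84 with RA, against 4.92 in untreated EBs and 4.87 in ES cells. Ache, which breaks down acetylcholine, had a difference of 0.90 with RA and 0.33 with bexarotene, and Slc6a5, the glycine transporter of glycinergic neurons, 0.61 and 0.16. Slc6a11, a GABA transporter, was lower with both, by -0.96 with bexarotene and -0.68 with RA. Of 33 metabotropic receptors of the same transmitters, none was past the threshold with bexarotene and 2, Grm2 (0.63) and Grm4 (0.60), were higher with RA. Those 2 are 6.06% of the list, where 2.07% of all genes were higher with RA.

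Markers of some cell types were past the threshold with the ligands, and those of others were not. Of all genes, 1.48% were higher and 2.15% lower with bexarotene, and 2.07% and 2.22% with RA. Of 12 genes of neurons, 8 were higher with bexarotene and 8 with RA, none was lower, and their mean log2 signal was 8.41 with bexarotene and 8.88 with RA, against 7.48 in untreated EBs and 7.56 in ES cells. Their median difference was 1.01 with bexarotene and 1.52 with RA, and between the ligands it was -0.42. Dcx, a protein of migrating young neurons, had the largest difference of this list, 2.21 with bexarotene and 3.17 with RA. The neurofilament gene Nefm differed by 1.93 and 2.24. Stmn2 (-0.18 and 0.18), Map2 (-0.08 and 0.55), Rbfox3 (-0.02 and 0.32) and Syt1 (0.14 and 0.57) were within the threshold with each ligand. Of 7 genes of neural crest and autonomic neurons, 2, Tfap2b (1.37 and 1.24) and Ngfr (0.73 and 0.73), were higher with each ligand, with a mean of 7.22 and 7.26 against 6.82 in untreated EBs and 7.14 in ES cells. Phox2a of autonomic neurons had differences of 0.11 and -0.01. Of 10 genes of blood and endothelium 4, the embryonic globins Hbb-bh1 (-1.71 and -1.54) and Hba-x (-1.43 and -0.98) and the endothelial genes Kdr and Cdh5, were lower with each ligand, with a mean of 6.72 and 6.79 against 7.23 in untreated EBs and 6.69 in ES cells. The 8 genes of glia and the 9 of extraembryonic and visceral endoderm gave no call with either ligand. Of 8 genes of pluripotent cells, none was higher with bexarotene and 5 with RA, led by Tdgf1 (0.45 and 0.74) and Nanog (0.41 and 0.72), with a mean of 7.82 with bexarotene and 8.13 with RA, against 7.56 in untreated EBs and 10.2 in ES cells. The part of these cell types in the subunit differences was not tested.

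**Figure D5:**
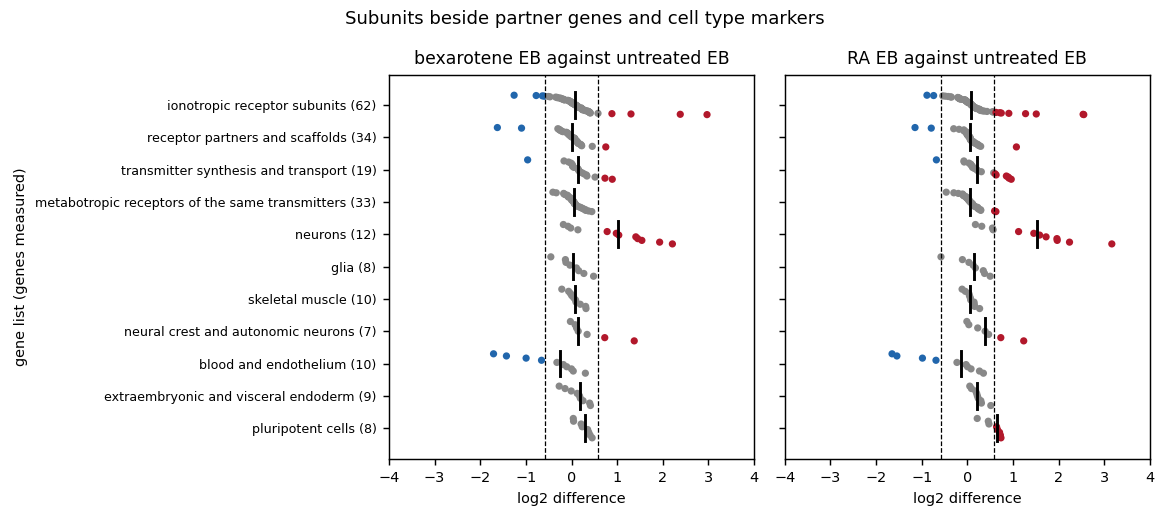
Log2 difference from untreated EBs with bexarotene and with RA for the 62 subunits, for 3 lists of partner genes and for 7 lists of cell type markers, with 1 point per gene, black bars at the list medians and dashed lines at 1.5-fold. The subunits centre near 0 (medians 0.09 and 0.09) with a tail to the right, while the genes of neurons centre at 1.01 with bexarotene and 1.52 with RA.

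Low signal limits what can be seen. Of the 62 genes, 12 were below the lower quartile on all 4 arrays, among them Glra2, Glra3, Glra4, Gria2 and Gabrg1, and 9 were above the median on all 4, among them Chrna4, Chrna7, Grik3, Grik5 and P2rx4. In whole EBs a subunit made by few cells could lie at such low values, and a difference in it may not be detectable on these arrays.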

How the data were processed

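RNA of 4 cultures was hybridized to Affymetrix mouse gene arrays, 1 per condition. The authors deposited 1 log2 signal value for each probe set and array, after background correction, normalization and summarization in Affymetrix Expression Console. The article names RMA and the submitters' processing notes name GCRMA, and which of them made the table was not settled. The number of arrays limits the precision.

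Of 35556 probe sets the platform annotation gives 1 symbol to 21789, several to 1621 and none to 12146. Members were taken by symbol, all 62 symbols equal the RefSeq symbol of their Entrez ID, and of several probe sets of a gene the one with the highest mean was used. The threshold was 1.5-fold, without any test. All subunits past it in any of 4 comparisons were named, as were, of each list, genes with large differences with a ligand. Gphn, Chat, Rapsn, Musk, Phox2a, Slc6a5, Myod1, Stmn2, Map2, Rbfox3 and Syt1 were named outside this rule, after their values were seen. The members and lists were chosen with earlier results of these data known. RefSeq positions (GRCm38.p6) gave gene order and promoters only. Alternatives were a 2-fold threshold, quantile and loess normalization (span 0.3), a floor at the 25th percentile, a filter on low signal, and the mean over probe sets. Calls were tested on simulated data with planted changes well past the threshold, which does not cover differences near 1.5-fold. Python 3.11.15, pandas 2.3.3, numpy 2.4.6 and statsmodels 0.14.6 were used.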

Additional observations from a re-analysis of the deposited data

How the results depend on the processing

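Counts that moved by over 1.5 times did so at the 2-fold threshold or without probe sets below both array medians. At 2-fold, 3 subunits were higher and 1 (Gabra3) lower with bexarotene, where 0.502% and 0.808% of all genes were. With RA 4 were higher and 0 lower, where 0.657% and 0.782% of all genes were, and untreated EBs had 6 higher and 3 lower relative to ES cells, where 5.81% and 3.50% of all genes were. Without low probe sets, 17 to 21 of the 62 genes were left. Of these, 2 were lower with bexarotene (3.03% of all genes left) and 5 higher with RA (2.86%). The median difference was 0.28 with RA, -0.17 between the ligands and 0.26 between untreated EBs and ES cells. This filter keeps a gene where either array is above its median, so some genes pass only through the array where they are high. In the RA comparison Glra1 and Chrna5 pass only through the RA-treated array. In the bexarotene comparison Gabra3 passes only through the untreated array. Counts and medians under this filter are therefore partly set by it, and nothing is concluded from them. With a floor at the 25th percentile, Glra3, Gabrg1 and Gria2 have both arrays at the floor for 4 of the 34 differences past 1.5-fold, which gives no value there, and of the other 30 differences 3 moved by more than the robust SD between the ligand arrays, to 2.84 (bexarotene) and 2.41 (RA) for Glra1 and to 0.69 for Grik2 in untreated EBs against ES cells. Under quantile normalization and the mean of all probe sets, all 34 of these differences were past the threshold with their direction kept, and under loess 33, the exception being P2rx2 in untreated EBs against ES cells at -0.56. No paired analysis was possible because each condition has 1 array and the labels give no replicate numbers.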
